A study of Homo sapiens with 6 samples.

Results

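Plasma membrane and organelle carriers of amino acids of the families SLC1, SLC3, SLC7, SLC36 and SLC38 were followed through cardiac differentiation of H9 cells, an established human embryonic stem cell line. The members were all protein-coding genes of the deposited table whose symbol is SLC1A, SLC3A, SLC7A, SLC36A or SLC38A followed by digits only, and these were 37 of 58735 genes. RNA was sequenced from 6 libraries of H9 cells, 1 at day 0, 4 on days 2, 3, 4 and 6, and 1 on day 30 of the making of cardiac organoids, small cultures of heart cell types in 3 dimensions. Each day had 1 library, and 10 organoids were taken per time point, per the labels. The agents added to the cultures are not given in the labels, and all libraries share the line and the label embryonic stem cell. Since no day had a second library, no difference has a replicate check and no p-value is given.

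Levels are FPKM, reads scaled by gene length and by a denominator for each library. Comparing FPKM between genes rests on the deposited gene length, which is the merged exons of each member. Whole reads were recovered from the FPKM values, between 13500887 and 15526924 per library. Intervals are 95% intervals of counting error only and hold no variation between cultures or library preparations. Reads amplified from a single molecule were not told apart, so the counting error itself may be larger. Summed FPKM of 6 stem cell markers was 1523 at day 0 and 3.53 at day 30, which goes against the label of the late library. At day 30 the sums were 145 for 7 cardiomyocyte markers, 5792 for 6 fibroblast markers and 594 for 6 fetal liver markers. In such mixed cultures more cells of a type and more RNA per cell cannot be told apart.

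Cells import amino acids through carriers with overlapping substrates. SLC7A light chains such as SLC7A5 reach the membrane bound to the heavy chain SLC3A2 and exchange 1 amino acid for another, while the cationic carriers of SLC7A work without a heavy chain. SLC1 carriers move glutamate, aspartate or small neutral amino acids, SLC38 carriers move glutamine and alanine with sodium, and SLC36 carriers move small amino acids with protons. Amino acid shortage activates the transcription factor ATF4, which is known to raise several of these genes together with enzymes of amino acid synthesis.

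Of the 37 members, 16 had at least 1 FPKM on every day, 12 on some days and 9 on none. The 37 together had a summed level of 333 FPKM at day 0, 306 at day 2, 284 at day 3, 350 at day 4, 360 at day 6 and 655 at day 30. Without SLC7A2, a carrier of arginine and lysine, the sum was 328 at day 0, 339 at day 6 and 414 at day 30. With scaling by total reads, tried for this sum after seeing the data, the order without SLC7A2 turned, with 380 at day 6 and 342 at day 30. The full sum was highest at day 30 under that scaling too, at 540.5. The share of recovered reads that fell in members was lowest at day 3, with 0.170%, and highest at day 30, with 0.358%.

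The leading carrier by FPKM changed over the 6 days. The glutamine and alanine carrier SLC38A2 was first on days 0, 2 and 3, at 69.4, 51.0 and 50.9 FPKM. The neutral carrier SLC1A5 led at day 4 with 69.6 FPKM, SLC7A5 at day 6 with 65.9 FPKM, and SLC7A2 at day 30 with 241 FPKM. On each day the counting interval of the first gene lay above that of the second, but these intervals do not cover the choice of gene length. In reads not divided by length, SLC38A2 stood above SLC1A5 at day 4 (6248 and 3664). It also stood above SLC7A5 at day 6 (6558 and 5409). Lower in the order by FPKM, SLC38A1 and SLC1A5 at day 0 (32.9 and 31.2 FPKM) and SLC38A1 and SLC3A2 at day 6 (32.4 and 31.4 FPKM) had intervals that overlapped.

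**Figure D1:**
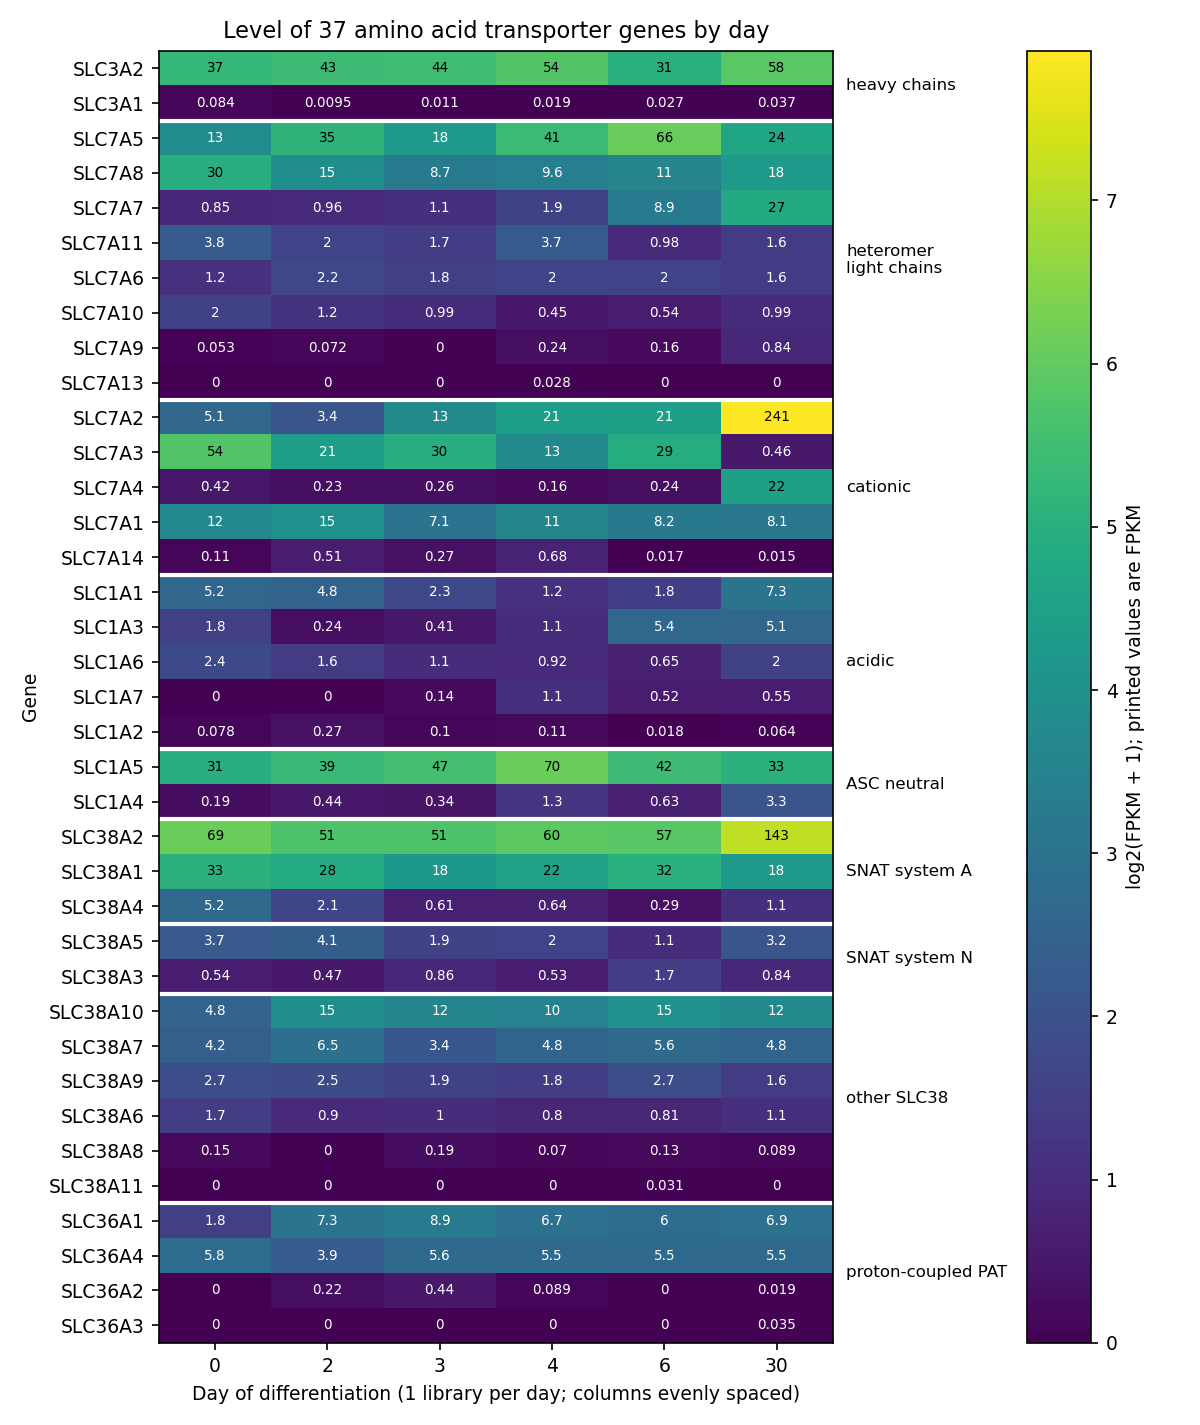
Colour shows log2(FPKM + 1) and the printed number the FPKM of each of the 37 genes (rows, grouped by role) in the 1 library of each day (columns). SLC7A2 and SLC38A2 at day 30 are the brightest cells, at 241 and 143 FPKM.

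A gene was called higher or lower when log2(FPKM + 1), with a pseudocount of 1, differed by at least 1 and its FPKM was at least 1 in either library. Between their lowest and highest day 19 of the 28 members that reached 1 FPKM passed this rule, or 67.9%, beside 64.0% of 13872 protein-coding genes. The highest day of these 19 was day 0 for 6 genes, day 30 for 6, day 6 for 3, day 4 for 2, and days 2 and 3 for 1 each. Not past the rule were SLC3A2, SLC7A1, SLC7A6, SLC36A4, SLC38A1, SLC38A3, SLC38A6, SLC38A7 and SLC38A9.

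The largest differences between days were those of SLC7A2, SLC7A3 and SLC7A4 among the cationic amino acid carriers. Of the 5 cationic members these 3 differed past the rule over the 6 days. The share was 64.0% over protein-coding genes that reached 1 FPKM, which SLC7A14 did not. SLC7A3 (ENSG00000165349, GRCh38 chromosome X, 70925582 to 70931125, minus strand), an arginine and lysine carrier, had 53.6 FPKM at day 0, 20.7 at day 2, 30.0 at day 3, 12.8 at day 4, 28.99 at day 6 and 0.465 at day 30. It was called lower at day 2 and day 4, higher at day 6, and lower at day 30. Its 13 reads at day 30 stood against 1135 at day 6, a 62.4-fold fall (36.3 to 118), and the level was 115-fold lower than at day 0 (67.3 to 217).

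SLC7A2 (ENSG00000003989, chromosome 8, 17497088 to 17570573, plus strand) went the other way. Its level was 5.14 FPKM at day 0, 3.37 at day 2, 12.8 at day 3, 20.6 at day 4, 21.2 at day 6 and 241 at day 30. The call at day 3 was a 3.79-fold rise (3.40 to 4.23), and it was the sole member called between days 2 and 3. The last level was 11.3-fold above day 6 (10.9 to 11.8) and 46.9-fold above day 0 (43.2 to 50.9), and the gene ranked 102nd among all protein-coding genes at day 30.

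SLC7A4 (ENSG00000099960, chromosome 22, 21028718 to 21032840, minus strand), a relative of these carriers without established transport of its own, had between 0.155 and 0.422 FPKM from day 0 to day 6 and 21.9 at day 30. Those were 6 to 15 reads in the first 5 libraries and 661 in the last, a 92.5-fold rise over day 6 (49.98 to 194). SLC7A1, the widely expressed arginine carrier, lay between 7.13 FPKM at day 3 and 14.8 at day 2 and was called in no comparison. SLC7A14, a lysosomal family member, stayed under 1 FPKM throughout, at 0.0155 to 0.678.

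The summed level of the 5 cationic members was 71.3 FPKM at day 0, 58.7 at day 6 and 271 at day 30. SLC7A3 made up 75.3% of that sum at day 0, 49.4% at day 6 and 0.171% at day 30. As shares of reads, not divided by gene length, these were 47.4%, 22.1% and 0.0521%. SLC7A2 made up 7.21% at day 0, 36.2% at day 6 and 88.8% at day 30. Of 6 fetal liver markers, 4 reached 1 FPKM at day 6 and 6 at day 30, with sums of 343 and 594 FPKM, but the 6 did not move together. AFP had 1.10 and 299 FPKM and SERPINA1 0.106 and 114, while APOA1 had 264 and 125, TTR 66.9 and 37.99, and APOB 10.7 and 3.54. The sum of 6 fibroblast markers was 653 and 5792 FPKM on these days. Their part in the level of SLC7A2 was not tested.

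**Figure D2:**
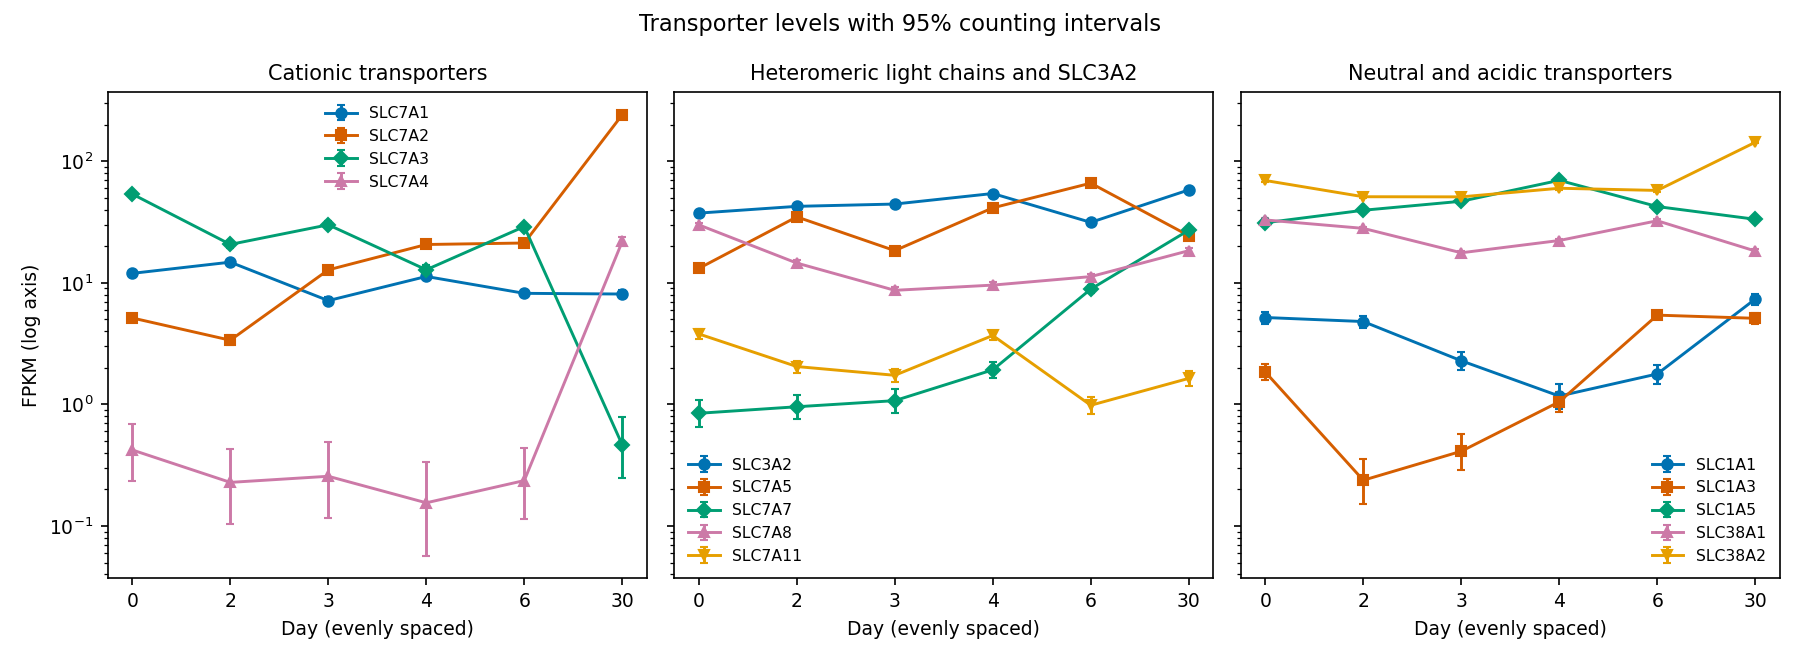
FPKM on a log axis against day for 14 members, 1 library per day, with 95% counting intervals as bars. SLC7A3 and SLC7A2 cross, from 53.6 and 5.14 FPKM at day 0 to 0.465 and 241 FPKM at day 30.

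Of the heteromeric carriers, 5 of the 8 light chains and 0 of the 2 heavy chains differed past the rule over the 6 days. The share was 64.0% over protein-coding genes that reached 1 FPKM, a level that SLC3A1, SLC7A9 and SLC7A13 did not reach. SLC3A2 (ENSG00000168003, chromosome 11, 62856102 to 62888875, plus strand), also known as CD98, had 37.4 FPKM at day 0, 42.5 at day 2, 44.4 at day 3, 54.2 at day 4, 31.4 at day 6 and 58.0 at day 30, with no call in any comparison. The other heavy chain, SLC3A1, which pairs with SLC7A9 in kidney and gut, had at most 0.0842 FPKM. The 6 light chains known to bind SLC3A2 had a summed FPKM of 1.36 times its level at day 0, 0.736 at day 3, 2.85 at day 6 and 1.28 at day 30.

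SLC7A5 (ENSG00000103257, chromosome 16, 87830023 to 87869488, minus strand), which imports leucine and other large neutral amino acids, rose and fell more than once. It had 13.1 FPKM at day 0, 34.8 at day 2, 18.4 at day 3, 41.3 at day 4, 65.9 at day 6 and 24.4 at day 30. Calls were a 2.65-fold rise at day 2 (2.46 to 2.86), a 2.25-fold rise at day 4 (2.10 to 2.40) and a 2.70-fold fall from day 6 to day 30 (2.55 to 2.87). Its pseudogene SLC7A5P1, with 7 to 34 reads, and SLC7A5P2, with 0, may take or lend reads.

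The promoter window of SLC7A5 is shown because its level changed most often among the light chains and because MYC and related factors, which bind the E-box, are known regulators of the gene. The window is the 250 bases before its RefSeq start (GRCh38.p14, chr16:87869508-87869757, minus strand), printed 5′ to 3′ with the E-box CACGTG in capitals.
SLC7A5: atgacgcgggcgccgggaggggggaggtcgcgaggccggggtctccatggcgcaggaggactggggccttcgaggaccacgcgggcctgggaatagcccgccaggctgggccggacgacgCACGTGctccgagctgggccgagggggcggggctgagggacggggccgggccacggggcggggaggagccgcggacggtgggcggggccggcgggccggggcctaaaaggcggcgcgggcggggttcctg
The E-box occurs, on either strand, in the windows of 7 of the 29 members with an entry and in 7.40% of 20898 windows of this length before protein-coding starts. The letters are a description of the sequence and not evidence of binding. Some genes have several starts and so several windows. A member was counted if any of its windows held the motif, while the percentage is per window. Count and percentage are therefore in unlike units and give no comparison.

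SLC7A8, a light chain of similar substrates to SLC7A5, had 29.9 FPKM at day 0, 14.5 at day 2, 8.67 at day 3, 9.57 at day 4, 11.2 at day 6 and 18.4 at day 30. No single step was called, and the lowest and highest day were past the rule. The ratio of SLC7A5 to SLC7A8 was 0.438 at day 0, 2.40 at day 2, 5.87 at day 6 and 1.33 at day 30. SLC7A8 was thus above SLC7A5 on day 0 and below it on each later day.

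SLC7A7 (ENSG00000155465, chromosome 14, 22773222 to 22829820, minus strand), a light chain that exports arginine and lysine in exchange for neutral amino acids, was low until day 4. It had 0.845 FPKM at day 0, 0.956 at day 2, 1.07 at day 3, 1.92 at day 4, 8.87 at day 6 and 27.1 at day 30. The rise was 4.61-fold at day 6 (3.88 to 5.51) and a further 3.05-fold at day 30 (2.80 to 3.32). SLC7A7 is known from macrophages and from kidney and gut epithelium. Of 4 macrophage markers, 0 reached 1 FPKM at day 6 and 2 at day 30, and their sum was 0.0713 and 7.54 FPKM, with CD68 at 0 at day 30. The sum of 5 kidney and gut epithelial markers was 5.84 at day 4, 31.7 at day 6 and 7.02 at day 30, with SLC34A1 at 0 on all 3 days. Their part in the level of SLC7A7 was not tested.

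SLC7A11, the light chain that imports cystine for glutathione synthesis, had 3.80 FPKM at day 0, 2.05 at day 2, 1.73 at day 3, 3.69 at day 4, 0.984 at day 6 and 1.64 at day 30. Its fall at day 6 was 3.75-fold (3.14 to 4.49), and it was the sole member called lower in that step. The antisense gene SLC7A11-AS1 overlaps 8.97% of its exonic bases and had at most 0.559 FPKM. SLC7A6, whose exons overlap those of SLC7A6OS over 44.4% of their bases, kept between 1.17 and 2.22 FPKM. SLC7A10, a carrier of small neutral amino acids, was highest at day 0 with 1.97 FPKM and lowest at day 4 with 0.447. SLC7A9 had at most 0.842 FPKM, and SLC7A13 had 1 read in all 6 libraries.

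In the light chain sum SLC7A8 held 58.8% at day 0, SLC7A5 held 73.5% at day 6, and SLC7A7, SLC7A5 and SLC7A8 held 36.1%, 32.6% and 24.5% at day 30. Each of the 3 was thus the leading light chain on at least 1 day.

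**Figure D3:**
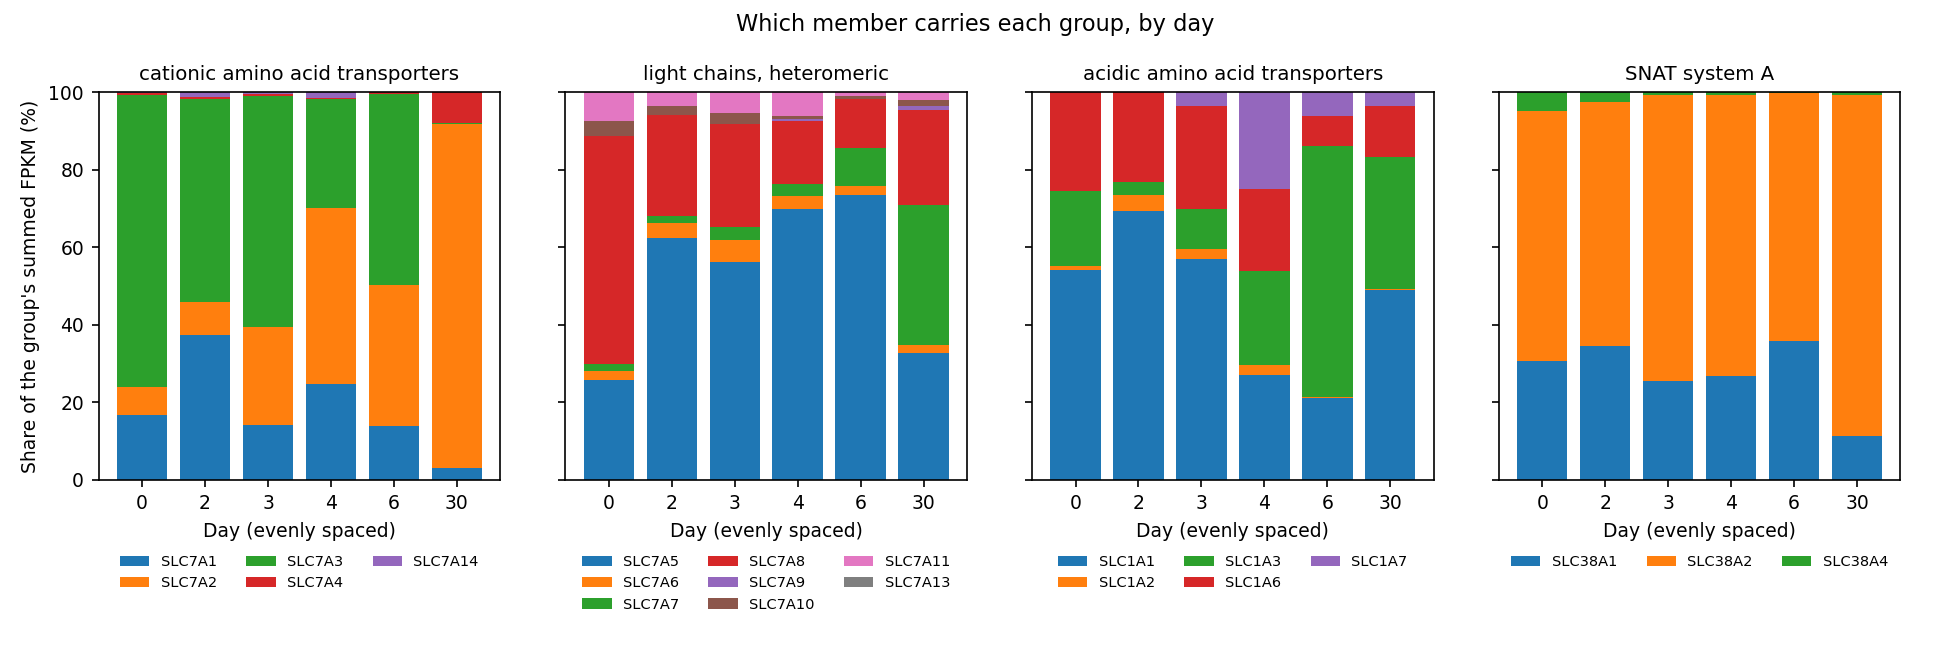
Stacked bars give each gene's share (%) of the summed FPKM of its group on each day, from 1 library per day. The cationic group went from SLC7A3 (75.3% at day 0) to SLC7A2 (88.8% at day 30), while SLC38A2 led the system A group on every day.

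Acidic amino acid carriers of SLC1 were low. SLC1A1, a neuronal and epithelial glutamate carrier, had 5.18 FPKM at day 0, 4.80 at day 2, 2.28 at day 3, 1.17 at day 4, 1.78 at day 6 and 7.35 at day 30. It was lowest at day 4 and rose 4.13-fold from day 6 to day 30 (3.36 to 5.11). The sum of 5 neuron markers was 31.0 FPKM at day 3, 24.0 at day 4, 1.23 at day 6 and 27.4 at day 30, of which STMN2 gave 25.8 at day 30, and SLC1A1 was low on days 3 and 4. Their part in the level of SLC1A1 was not tested. SLC1A3, the glutamate and aspartate carrier best known from astrocytes, had 1.85, 0.238, 0.412, 1.05, 5.42 and 5.10 FPKM on the 6 days in order. It fell 7.76-fold at day 2 (5.04 to 12.4) and rose 5.16-fold at day 6 (4.18 to 6.42). The sum of 5 astrocyte and radial glia markers was 3.38 FPKM at day 0, 4.86 at day 4, 1.83 at day 6 and 20.4 at day 30, of which SOX9 gave 19.4 at day 30. Their part in the level of SLC1A3 was not tested.

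SLC1A6, a further glutamate carrier, went from 2.45 FPKM at day 0 to 0.651 at day 6 and 1.96 at day 30 with no single step called. SLC1A7 had 0 reads at days 0 and 2, where the floor of 3 reads is 0.0382 and 0.0345 FPKM, and was highest at day 4 with 1.09. SLC1A2, the main glial glutamate carrier, had at most 0.275 FPKM.

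The neutral carrier SLC1A5 (ENSG00000105281, chromosome 19, 46774883 to 46788594, minus strand), which brings glutamine into dividing cells, had 31.2 FPKM at day 0, 39.5 at day 2, 46.8 at day 3, 69.6 at day 4, 42.3 at day 6 and 33.3 at day 30. No step was called, but day 4 and day 0 differed past the rule. Its relative SLC1A4, a serine and alanine carrier, had 0.188, 0.439, 0.342, 1.35, 0.625 and 3.25 FPKM on the 6 days in order. SLC1A4 was called higher at day 30, 5.21-fold above day 6 (4.02 to 6.81) and 17.3-fold above day 0 (10.9 to 29.1).

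SLC1A5 is a known ATF4 target, and the window before 1 of its 3 RefSeq starts holds the letters TGATGNAA of the amino acid response element. It is 1 of the 2 members with that motif, the other being SLC1A3, and 2.35% of all windows have it. The window (GRCh38.p14, chr19:46784815-46785064, minus strand) belongs to a start inside the gene, 3780 bases from its outermost one, and the motif is in capitals.
SLC1A5: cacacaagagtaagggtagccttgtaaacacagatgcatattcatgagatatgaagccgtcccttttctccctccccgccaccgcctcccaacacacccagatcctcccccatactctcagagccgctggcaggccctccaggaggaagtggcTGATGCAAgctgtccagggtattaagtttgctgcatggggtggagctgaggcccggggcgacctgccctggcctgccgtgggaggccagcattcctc
Reads were counted per gene, so the table does not show which start was used. The antioxidant response element, searched as TGACNNNGC, was in the windows of 6 members and 11.2% of all windows. The GATA element AGATAA was in those of 3 members and 7.09% of all windows. Both strands were searched for every motif, and members were again counted over any window while percentages are per window.

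SLC38A2 (ENSG00000134294, chromosome 12, 46358189 to 46372867, minus strand), a sodium-coupled carrier that is induced when amino acids run short, was even until day 6 and highest at day 30. It had 69.4 FPKM at day 0, 51.0 at day 2, 50.9 at day 3, 59.9 at day 4, 57.5 at day 6 and 143 at day 30. The last level was 2.49-fold above day 6 (2.41 to 2.56) and 2.06-fold above day 0 (2.00 to 2.12). Both calls were lost when libraries were scaled by total reads, which gave folds of 1.83 and 1.74.

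Its close relative SLC38A1, a glutamine carrier, did not follow it and had 32.9 FPKM at day 0, 17.6 at day 3, 32.4 at day 6 and 18.3 at day 30. The ratio of SLC38A2 to SLC38A1 was between 1.78 and 2.88 until day 6 and 7.83 at day 30. SLC38A4, a system A carrier known from liver and placenta, had 5.25, 2.14, 0.606, 0.641, 0.293 and 1.13 FPKM on the 6 days in order. It was called lower at day 30 than at day 0, by 4.63-fold (3.49 to 6.24). The summed fetal liver markers were at 0.398 and 594 FPKM on days 0 and 30, and their part in the level of SLC38A4 was not tested.

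Of the system N carriers, SLC38A5 had 4.05 FPKM at day 2, 1.07 at day 6 and 3.25 at day 30, a 3.04-fold rise over day 6 (2.30 to 4.07). That call was lost with scaling by total reads, which gave a fold of 2.24, and at a minimum of 5 FPKM, which the gene does not reach. SLC38A3, known from liver and kidney, was highest at day 6 with 1.69 FPKM and was called in no comparison. SLC38A10 rose 3.04-fold at day 2 (2.76 to 3.36), from 4.76 to 14.5 FPKM, and lay between 10.4 and 15.0 thereafter. SLC38A7, a lysosomal glutamine exporter, had 3.42 to 6.55 FPKM, and SLC38A9, the lysosomal arginine sensor of the kinase complex mTORC1, had 1.63 to 2.73. SLC38A6 had 0.799 to 1.70 FPKM, SLC38A8 had at most 0.192, and SLC38A11 had 3 reads in all.

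The proton-coupled carrier SLC36A1 (ENSG00000123643, chromosome 5, 151437046 to 151492381, plus strand), which exports amino acids from lysosomes, had 1.82 FPKM at day 0, 7.35 at day 2, 8.87 at day 3, 6.69 at day 4, 6.01 at day 6 and 6.85 at day 30. The rise at day 2 was 4.03-fold (3.43 to 4.75), and every later day was above day 0. SLC36A4 had 3.94 to 5.78 FPKM without a call. SLC36A1 was 24.0% of the summed FPKM of its group at day 0 and 63.9% at day 2. SLC36A2 had at most 0.442 FPKM, and SLC36A3 had 2 reads, both at day 30.

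SLC36A1 is shown because 1 of its 2 RefSeq starts has 2 E-boxes in its window, as have 0.703% of all windows. Factors of lysosomal genes such as TFEB are known to bind this motif. The window (GRCh38.p14, chr5:151447353-151447602, plus strand) lies before a start 10557 bases inside the gene.
SLC36A1: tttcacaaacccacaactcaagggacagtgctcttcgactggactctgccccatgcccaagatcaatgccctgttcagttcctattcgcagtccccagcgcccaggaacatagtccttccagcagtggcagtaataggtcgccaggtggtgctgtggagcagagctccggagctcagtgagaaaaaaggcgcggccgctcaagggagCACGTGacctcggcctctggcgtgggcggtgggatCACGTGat
No relation of the motif to the members' levels was tested.

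Up to day 6 each step had at most 5 called members. At day 2 against day 0, 3 of 23 measured members rose, beside 8.78% of all genes tested (6.48% of protein-coding genes), and 2 fell, beside 7.75% (5.28%). The median log2 difference of measured members was -0.22, beside -0.03 for all genes tested. At day 3 against day 2, 1 of 23 rose, beside 7.13% (4.28%), and 0 fell, beside 4.98% (3.11%). With a pseudocount of 0.1 in place of 1, 4 fell at day 3, namely SLC1A1, SLC7A1, SLC38A4 and SLC38A5, beside 8.53% of all genes under that setting.

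At day 4 against day 3, SLC7A5 rose and SLC7A3 fell, 1 of 24 each, beside 4.23% (1.85%) and 3.59% (1.60%). At day 6 against day 4, SLC1A3, SLC7A3 and SLC7A7 rose, 3 of 23, beside 5.51% (4.30%), and SLC7A11 fell, 1 of 23, beside 6.71% (4.18%). Under TPM scaling 4 members rose, beside 14.2% of all genes, and 2 fell, beside 11.04%.

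The last step had the most calls. At day 30 against day 6, SLC1A1, SLC1A4, SLC7A2, SLC7A4, SLC7A7, SLC38A2 and SLC38A5 rose, 7 of 26, beside 21.0% (19.8%), and SLC7A3 and SLC7A5 fell, beside 15.3% (13.2%). The median log2 difference was 0.19 for members and 0.08 for all genes tested. With scaling by total reads 5 rose and 3 fell, SLC38A1 among them, and the background became 14.4% higher and 24.1% lower with a median of -0.33.

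At day 30 against day 0, which uses the same day 30 library, 8 of 26 rose, beside 25.9% (24.4%), and 2 fell, beside 19.1% (18.4%). The 8 were SLC1A3, SLC1A4, SLC7A2, SLC7A4, SLC7A7, SLC36A1, SLC38A2 and SLC38A10, and the 2 were SLC7A3 and SLC38A4. With scaling by total reads 5 rose and 4 fell, beside 21.6% and 23.4% of all genes. SLC1A3, SLC38A2 and SLC38A10 were no longer called, and SLC7A11 and SLC38A1 were called lower. With the deposited scaling rises were 30.8% and falls 7.69% of measured members.

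Other genes of amino acid supply were read from 8 lists. Of 15 measured genes of the ATF4 and amino acid response, 8 fell at day 6 against day 4, beside 6.71% of all genes, and 0 rose, beside 5.51%, with a median log2 difference of -1.10. TRIB3, an inhibitor of ATF4 and of the kinase AKT, went from 8.94 to 1.52 FPKM, CHAC1, a glutathione-degrading enzyme, from 10.1 to 1.77, and DDIT4, an inhibitor of mTORC1, from 131 to 29.9. SLC7A11, itself an ATF4 target, fell in the same step, whereas SLC7A5, a further one, had 41.3 and 65.9 FPKM.

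From day 6 to day 30, 12 of 16 genes of that list rose and 0 fell, with a median of 1.74, beside 21.0% and 15.3% of all genes and a median of 0.08. ATF3 went from 1.56 to 66.3 FPKM, CEBPB from 10.3 to 259 and STC2 from 4.34 to 122. Not called were ASNS (0.896 and 2.02 FPKM), CHAC1 (1.77 and 2.60), CEBPG (11.1 and 8.61) and EIF4EBP1 (56.3 and 46.8). With scaling by total reads 8 of 16 rose and 0 fell, beside 14.4% and 24.1% of all genes under that scaling. The 6 genes ATF3, DDIT3, DDIT4, PPP1R15A, STC2 and TRIB3 were lower at day 6 and higher at day 30, comparisons that share the day 6 library, and they are named after their values were seen. Among the transporters SLC38A2 and SLC1A4 were higher at day 30 than at day 6, SLC7A5 was lower, and SLC7A11 was not called (0.984 and 1.64 FPKM). Nor were SLC1A5 (42.3 and 33.3 FPKM), SLC3A2 (31.4 and 58.0) and SLC7A1 (8.19 and 8.08) called.

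Enzymes of serine, glycine and proline synthesis moved the other way at day 30, when 7 of 11 fell and 1 rose against day 6, beside 15.3% and 21.0% of all genes, with a median of -1.49. PHGDH, the first enzyme of serine synthesis, went from 60.6 to 8.25 FPKM, PSAT1, the next one, from 45.3 to 9.03, and PSPH, the last, from 13.5 to 1.96. MTHFD2, a mitochondrial folate enzyme, rose from 12.7 to 43.4 FPKM. The counts were the same with scaling by total reads, beside 24.1% and 14.4% of all genes, and under TPM scaling, beside 28.1% and 21.5%. At a minimum of 5 FPKM, however, 4 of 8 fell and 1 rose, beside 14.4% and 23.8%, with a median of -0.53.

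Of 21 measured genes of amino acid sensing by mTORC1, 7 rose from day 6 to day 30, beside 21.0% of all genes, and 0 fell, beside 15.3%. The Rag GTPases RRAGD (0.582 to 9.40 FPKM) and RRAGC (1.21 to 9.79) and the folliculin partner FNIP1 (3.32 to 23.1) rose most. The counts depended on the setting, since with total reads 5 rose and 3 fell, beside 14.4% and 24.1% of all genes. Under TPM scaling 6 rose and 2 fell of 23, beside 21.5% and 28.1%. TPM values run higher than FPKM here, so the same minimum and pseudocount weigh less. The arginine sensor SLC38A9 was at 2.73 and 1.63 FPKM on these days.

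**Figure D4:**
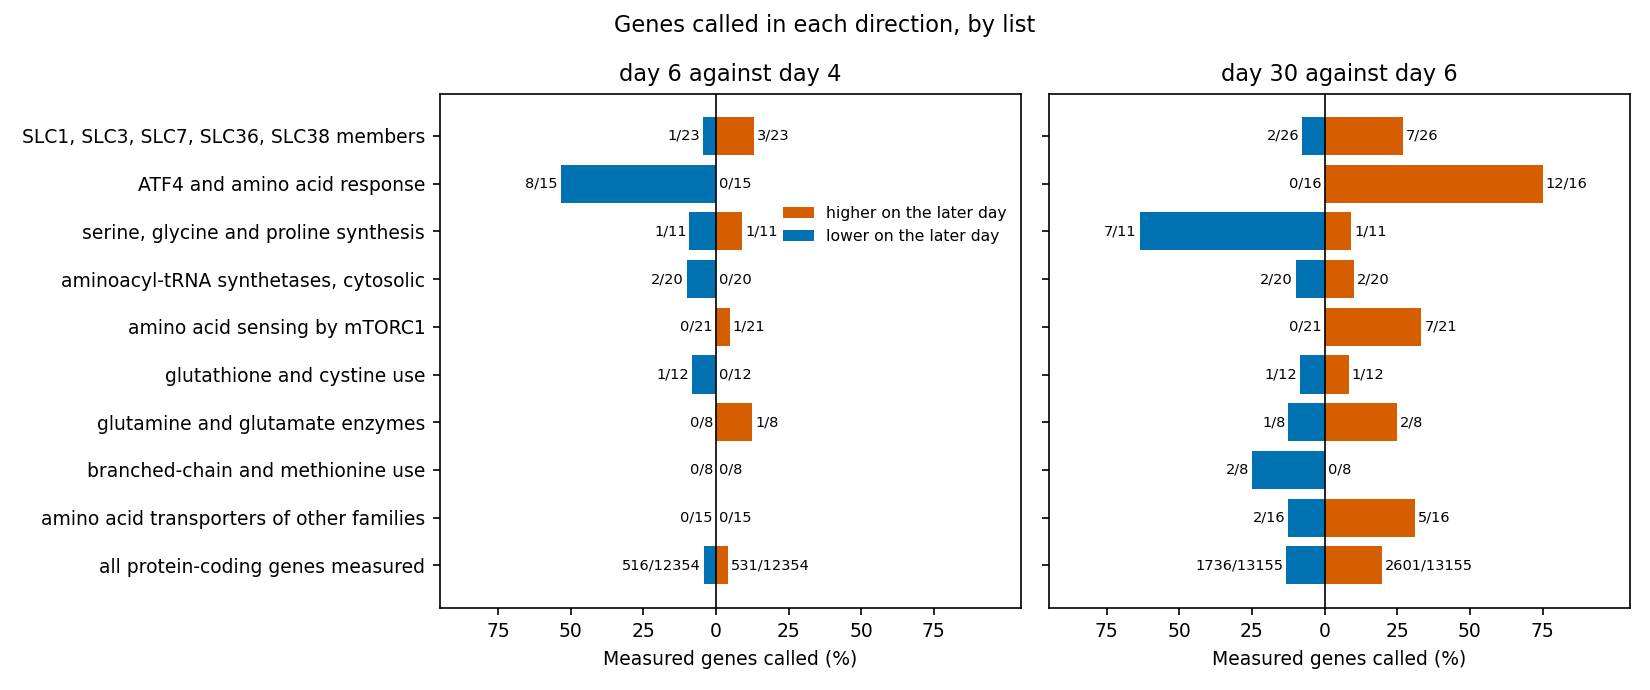
Bars give the percentage of measured genes called higher (right) and lower (left) on the later day, with counts, for the transporter members, 8 lists and all protein-coding genes. ATF4 response genes fell at day 6 (8 of 15) and rose at day 30 (12 of 16), while 7 of 11 serine, glycine and proline synthesis genes fell at day 30.

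Of 26 genes listed as amino acid carriers of other families, 16 were measured from day 6 to day 30. Of these, 5 rose and 2 fell, shares of the order of the 21.0% and 15.3% of all genes. The list is not limited to carriers of amino acids, since it holds the creatine carrier SLC6A8, which went from 22.3 to 156 FPKM. The SLC43 family members SLC43A3 and SLC43A2 went from 1.45 to 12.8 and from 0.774 to 6.88. The mitochondrial ornithine carrier SLC25A15 went from 8.25 to 1.45 FPKM and the aspartate and glutamate carrier SLC25A13 from 15.0 to 6.89. Of 8 measured glutamine and glutamate enzymes 2 rose and 1 fell, with glutamine synthetase, GLUL, at 46.1 and 130.5 FPKM. The glutathione list had 1 of 12 in each direction, the branched-chain and methionine list 0 of 8 higher and 2 lower, and the aminoacyl-tRNA synthetases 2 of 20 in each direction.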

How the data were processed

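The authors deposited 1 table of FPKM values for 58735 genes and 6 libraries. The submitters' processing notes name CASAVA, HISAT2 and featureCounts 1.5.0-p3, while the sources used here do not state settings, genome build or strand handling. All gene identifiers, starts and ends equal those of GENCODE release 29 on GRCh38, and reads of overlapping genes may therefore be shared. Dividing FPKM times gene length by the value of a single read in that library gave whole reads, within 0.01 read, for 100% of values above 0, 13500887 to 15526924 per library. The library denominator was 0.826 times the read total at day 30 and up to 1.12 times it at day 6. It was 0.995 to 1.01 times a median-of-ratios denominator set to the same geometric mean, so the deposited scaling is close to that one. Folds are FPKM ratios with exact conditional binomial 95% intervals, and levels have exact Poisson intervals. A count of 0 stayed 0 in levels and calls, and the floor of 3 reads is a reference level only.

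With 1 library per day, the rule of size was a log2(FPKM + 1) difference of at least 1 with at least 1 FPKM in either library, applied to the whole table. It understates changes of low genes. The procedure was tested on simulated reads. Every member is named, and of each other list the called genes with the largest changes, up to 3 in each direction, although fewer are printed for most. The members and lists were chosen with earlier results of these data known. Promoter windows are from RefSeq, with an entry for 29 of the 37 members. Alternatives were the pseudocount, the minimum, 3 other scalings, a stricter interval and read shares without length. Python 3.11.15, numpy 2.4.6, pandas 2.3.3 and scipy 1.17.1 were used.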

Additional observations from a re-analysis of the deposited data

How the results depend on the processing

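No paired analysis was possible because each day had 1 library. No called fold changed direction under any of the 3 other scalings. For total reads and median-of-ratios this was fixed in advance, since a called fold is above 2 and the denominators differ by less. Median-of-ratios scaling left every count of called members within 1.5 times, but it nearly equals the deposited scaling. A counting interval corrected for all genes tested did so too. It covers counting error only and was applied to genes already called. With a pseudocount of 0.1, the count of members lower became 4 at day 2, beside 13.1% of all genes under that setting, and 4 at day 3, beside 8.53%. The count higher became 5 at day 4, beside 7.69%. At a minimum of 5 FPKM, where fewer genes are tested, 1 was lower at day 2, beside 7.17%, and 0 at day 6, beside 5.67%. Under TPM scaling 1 was lower at day 3, beside 8.36%, and 3 were higher and 2 lower at day 4, beside 9.40% and 9.94%. Lower were 2 at day 6, beside 11.04%, and 4 at day 30 against day 6, beside 28.1%. TPM values run higher than FPKM here, so the same minimum and pseudocount weigh less, with 28 members measured in place of 23 at day 2. These counts therefore do not show scaling alone. Scaling by total reads gave 5 higher and 4 lower at day 30 against day 0, beside 21.6% and 23.4% of all genes. At day 30 the deposited denominator was 0.826 times the read total and 0.995 times the median-of-ratios one. Why the read total and the median of ratios differ there was not tested. Read shares without gene length lowered that of the short gene SLC7A3 among cationic carriers at day 6 from 49.4% to 22.1%. The reads behind a low level depend on gene length, as SLC7A3 had 13 reads at 0.465 FPKM and SLC1A2 had 26 at 0.0784 FPKM.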
